A study of Mus musculus with 15 samples.

Results

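The unmodified parental line was profiled in each of the 2 experiments of this study, and the 6 wild-type (WT) libraries, of 15 in all, are described here. They are mouse embryonic stem cells (ESC) of mixed 129Sv-C57Bl/6 background, grown in serum and LIF on feeder cells or gelatine, with no treatment. All 3 WT samples of the KO experiment and all 3 of the full-deletion experiment were taken, named a, b and c in each, and joined gene by gene on the Entrez identifier. The KO experiment set WT beside a single-clone line with a frameshift in Hmga1 and its add-backs, and the full-deletion experiment set WT beside a line that lacks the Hmga1 coding sequence. The frameshift line (2 samples) and the deletion line (3 samples) are used below only to ask whether a difference between experiments was also seen in cells without Hmga1. The parental line carries a biotin ligase under a ubiquitous promoter, and the labels give no passage number. The letters of the KO experiment stand for preparation days and flow cells, whereas the full-deletion samples shared 1 lane. Experiment, harvest, preparation and sequencing run therefore changed together and cannot be told apart, so every difference below is a description of these libraries.

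ESC are the pluripotent cells of the inner cell mass held in culture, kept in self-renewal by the transcription factors Oct4 (Pou5f1), Sox2 and Nanog and by LIF signalling. ESC cultures in serum are mixed. A few cells at any time express genes of the 2-cell embryo such as the Zscan4 cluster, a few turn towards primitive endoderm with Gata6 and Gata4, and genes of the germ line are held silent mostly by DNA methylation. The RNA content of ESC is otherwise dominated by products needed for fast division, namely histones, ribosomal proteins, chaperones and nucleolar proteins.

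The WT libraries held 30742898, 13491195 and 25923536 counts on genes in a, b and c of the KO experiment, and 21254821, 21708492 and 21067438 in the full-deletion experiment. Pearson correlations of log2(CPM + 1), where CPM is a gene's count per 1000000 counts of the library after TMM scaling, were 0.983 to 0.985 within the KO experiment, 0.978 to 0.997 within the full-deletion experiment and 0.927 to 0.970 between them. Library b of the full-deletion experiment stood apart. Its 10 most abundant genes took 8.78% of counts, against 4.96% to 5.38% in the other WT libraries, and its TMM factor was 0.740 against 0.969 to 1.20. Libraries a and c of the KO experiment stood apart in another way: unscaled CPM summed over 1434 olfactory and vomeronasal receptor genes, which ESC are not known to use, came to 61.9 and 79.0, against 5.67 to 13.2 in the other 13 libraries of the series. Counts of called genes are given below without each of them, and the part of these reads in the results was not tested. Hmga1 itself had 399, 235 and 193 CPM in WT of the KO experiment and 363, 315 and 361 in WT of the full-deletion experiment, ranges that overlap.

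Baseline expression was that of ESC in all 6 libraries. Levels of different genes are compared as RPKM, that is CPM per kilobase of the exonic length given in the tables. Oct4 had 495 ± 47.2 RPKM in WT of the KO experiment and 464 ± 35.3 in WT of the full-deletion experiment (SD, n = 3 each), rank 88 of the 13416 genes whose mean count reached 10. The summed level of 9 ESC markers (Pou5f1, Sox2, Nanog, Zfp42, Esrrb, Klf4, Tdgf1, Utf1 and Fgf4) was 1928 to 2112 RPKM in the KO experiment and 2266 to 3702 in the full-deletion experiment. Markers of other cells were low. The sum of 8 fibroblast markers, which feeder cells would carry, was 1.13 to 3.18 RPKM in the 6 libraries, with Postn, Lum and Dcn at 0 in the full-deletion libraries, that of 4 mesendoderm markers 0.662 to 1.56 and that of 4 trophoblast markers 0.585 to 0.868. The 4 neural markers summed to 49.5 to 80.3 RPKM, most of it from Tubb3, a tubulin that ESC also make.

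The genes with the highest RPKM encode histones, ribosomal proteins, chaperones and short structural RNAs. The 15 highest over both experiments were, in order, Hist2h2bb, Rmrp, Ptma, Rprl3, Hsp90ab1, Hist1h2bb, Rplp1, Rpl4, Hspa8, Ncl, Rpl26, Hsp90aa1, Cnbp, Rpl7 and Rpl37. Within this group the experiments did not share 1 order. Hsp90ab1, a cytosolic chaperone, had 3771 ± 142 RPKM in the KO experiment against 2685 ± 608 in the full-deletion experiment and did not pass the test. Rmrp, the RNA of RNase MRP, went from 6286 ± 1433 to 856 ± 570 RPKM, and Hist2h2bb, a histone H2b gene, from 3076 ± 630 to 11283 ± 2840. Hist2h2bb and Rmrp were both called at the thresholds given next. By contrast, the 5 most even genes among the 1000 most abundant, Anln, Dhx9, Kif20a, Fem1b and Cct3, spanned only 1.07-fold to 1.12-fold over all 6 libraries. Anln, an actin-binding protein of cytokinesis, had 252, 267 and 251 CPM in the KO experiment and 268, 252 and 265 in the full-deletion experiment.

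Between the experiments, 933 of 13416 genes were called (6.95%), 486 higher in the full-deletion experiment (3.62%) and 447 lower (3.33%), at an adjusted p under 0.01 in edgeR's quasi-likelihood test and a fold of at least 2. The median log2 difference of all genes was -0.04, 52.0% of genes moved by less than 0.5 on the log2 scale, and 17.5% by 1 or more. The values of the experiments did not overlap for any called gene, but neither did they for 48.2% of all genes tested, so lack of overlap is common here. The number of calls depended on the libraries kept, since 171, 15 and 15 genes were called without a, b or c of the KO experiment. All 933 called genes kept their sign in each of these 3 fits, but with no overlap of values this could hardly be otherwise. In the same test, unadjusted p was under 0.05 for 4599, 4820 and 4999 genes, against 5609 with all 6 libraries. A fit with 1 library fewer can also have less power, so a lost call need not be a lost difference, here and for the lists below. Fits without 1 full-deletion library have as many samples and are given below. The cause of the fall in calls was not tested. Without both a and c edgeR called none, with 3021 genes at an unadjusted p under 0.05, but b is then the only library of its experiment and is assumed to vary like the full-deletion libraries, so this count says little about stability. Without a, b or c of the full-deletion experiment the number was 991, 745 and 583. Library b of the full-deletion experiment was the highest of its 3 for 82.7% of the genes called higher and the lowest for 80.3% of those called lower, against 42.9% and 46.3% of all genes tested. Scaling by summed counts moved the median log2 difference by -0.33, and of the 625 genes then called, 25.3% were higher, against 52.1% with TMM. List medians below are with TMM, and those smaller than that shift, or close to it, are also given with summed counts.

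**Figure D1:**
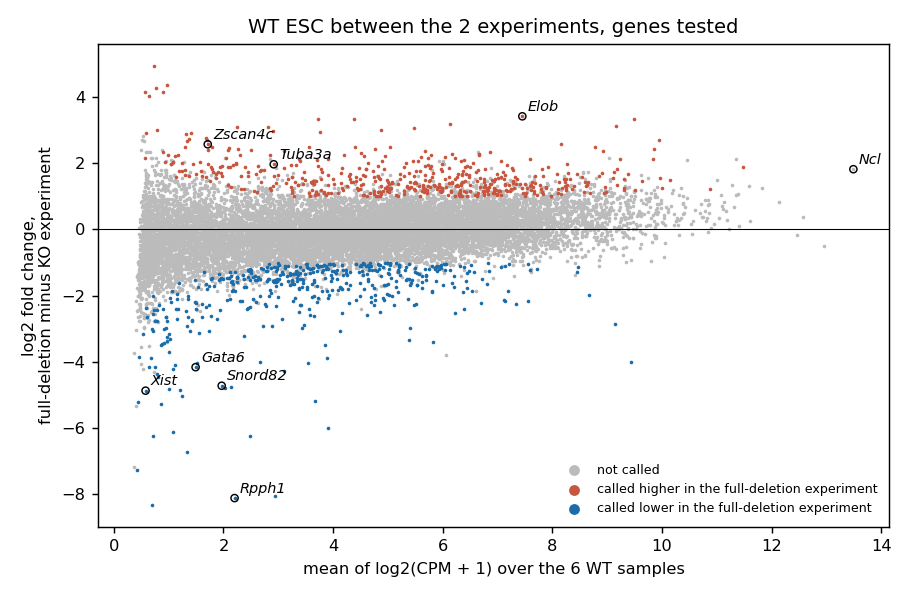
Difference of WT between the experiments against expression level for each of the 13416 genes tested. The x axis is the mean of log2(CPM + 1) over 6 libraries and the y axis the log2 fold change, full-deletion minus KO experiment; 486 genes called higher are red, 447 called lower are blue, and the genes farthest from 0, such as Rpph1, lie on the lower side.

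Among genes with at least 5 CPM in the higher experiment, those called higher with the largest differences were Elob, Fbxo36, Sox15, Rpl37, Lsm5, Chchd10, Aurkc, Etv2, Snora65 and Smc1b. Elob, a subunit of the elongin complex, had 54.7, 41.3 and 72.0 CPM in the KO experiment and 426, 970 and 404 in the full-deletion experiment, a log2 difference of 3.42 ± 0.38 (SE, adjusted p = 0.00164). Sox15, a transcription factor of ESC related to Sox2, had 6.90, 5.70 and 5.77 CPM and then 49.2, 86.0 and 51.5 (3.34 ± 0.26, adjusted p = 0.00048). In both genes the full-deletion libraries lay well above those of the KO experiment, with b the highest. Chchd10, a mitochondrial intermembrane protein, went from 237, 124 and 256 to 1177, 2758 and 1413 CPM, Lsm5, a subunit of the ring that binds U6 RNA, from 16.3, 25.5 and 33.6 to 117, 419 and 147, and Etv2, an ETS factor known for blood vessel development, from 1.22, 0.927 and 1.52 to 5.26, 19.9 and 6.91. Library b of the full-deletion experiment was again the highest in each, and the groups did not overlap.

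At the same minimum of 5 CPM, those called lower with the largest differences were Rpph1, Gm20594, Slc24a5, Rnu12, Rnu1b2, Snord87, Snord15a, Lrrc17, Snord82 and Hist4h4, most of them short RNAs that are not translated. Rpph1, the RNA of RNase P that cuts tRNA precursors, had 348, 466 and 633 counts in the KO experiment and 4, 0 and 0 in the full-deletion experiment, 0.384% of the KO-experiment level (95% exact interval for counting error only, 0.104% to 0.985%). Rnu12, the U12 RNA of the minor spliceosome, had 17.7, 13.97 and 48.2 CPM and then 0.676, 0.0622 and 0.245 (log2 difference -6.25 ± 0.66, adjusted p = 0.00141). Slc24a5, an ion exchanger known from pigment cells, had 1.66, 11.9 and 5.44 CPM and then 0.0965, 0.0622 and 0, so its KO-experiment libraries also differed among themselves.

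Zscan4c, a member of the gene cluster that marks 2-cell-like cells, was higher in the full-deletion experiment, and so were its relatives Zscan4a and Zscan4f. Zscan4c (chromosome 7, 11591071 to 11595896, plus strand, mm9) had 0.625, 1.72 and 0.363 CPM in the KO experiment and 5.26, 4.54 and 4.95 in the full-deletion experiment, a log2 difference of 2.57 ± 0.46 (adjusted p = 0.00542). Every full-deletion library was above every KO-experiment library, and the 3 were close to each other. Of 25 genes of the 2-cell-like list, 11 had enough counts to be tested. Of these, 4 were called higher (Zscan4c, Zscan4a, Zscan4f and Usp17lb), none lower, and the list's median log2 difference was 2.02 against -0.04 for all genes. Over all genes tested, 3.62% were called higher. A gene at these levels passes the count minimum mainly through the experiment where it is high, so the 11 are not a fair sample of the list. Without a, b or c of the KO experiment 0, 0 and 0 of the list were called, and 3 without b of the full-deletion experiment. Zscan4b, Zscan4d and Zscan4e had log2 differences of 1.56, 2.02 and 1.796 and did not pass. Zscan4f had 0.598, 1.46 and 0.871 CPM and then 5.12, 5.42 and 5.09, nearly the values of Zscan4c. The Zscan4 copies are close to identical, and a read that matched several of them was placed at 1 at random, so they are not independent measurements. How alike they are near their start sites is shown by the upstream stretches of Zscan4c and Zscan4f in RefSeq (GRCm38.p6), where capitals mark the longest run that both share, 127 bases; Zscan4c is read from chr7:11005495-11005641 and Zscan4f from chr7:11397668-11397834, plus strand.
Zscan4c: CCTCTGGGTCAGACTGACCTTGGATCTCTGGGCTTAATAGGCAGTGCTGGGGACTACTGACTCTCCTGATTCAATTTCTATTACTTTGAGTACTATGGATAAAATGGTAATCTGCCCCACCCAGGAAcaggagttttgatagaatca
Zscan4f: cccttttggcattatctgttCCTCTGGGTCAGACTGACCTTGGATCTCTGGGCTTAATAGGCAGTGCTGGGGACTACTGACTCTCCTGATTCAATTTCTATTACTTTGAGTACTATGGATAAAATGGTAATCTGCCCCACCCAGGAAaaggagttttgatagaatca

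For Zscan4c, Zscan4a and Zscan4f the WT libraries of the KO experiment had the lowest values of the whole series. In the fit of all 15 samples, Zscan4c had 0.687, 1.90 and 0.392 CPM in them, 27.0 and 10.04 in the frameshift line of the same experiment, 4.81 to 13.8 in the 4 add-back samples, 5.05 to 5.66 in WT of the full-deletion experiment and 2.05 to 3.33 in the deletion line. For Usp17lb they did not stand apart, since deletion sample a (0.198 CPM) lay below b and c of the KO-experiment WT (0.220 and 0.235).

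Tuba3a, an alpha-tubulin gene known from testis, was another gene that was higher in the full-deletion WT. It (chromosome 6, 125228292 to 125236060, minus strand, mm9) had 3.75, 2.65 and 3.26 CPM and then 14.8, 10.02 and 13.4, a log2 difference of 1.97 ± 0.25 (adjusted p = 0.00189). Every full-deletion library was above every KO-experiment library. Tuba3b, its near copy, had 0.951, 1.72 and 1.63 CPM and then 5.50, 4.36 and 5.63 (1.88 ± 0.31, adjusted p = 0.00412), and these 2 were the only alpha-tubulins called of 6 tested (1, 0 and 0 without a, b or c of the KO experiment). The share called higher over all genes tested was 3.62%. With summed counts 1 of the 6 was called. Near copies can share reads, so the 2 calls are not independent. Across all 15 samples Tuba3a again was lowest in WT of the KO experiment, at 2.93 to 4.12 CPM, against 10.9 to 34.5 in the 6 samples of the frameshift line and its add-backs, 11.1 to 15.9 in the full-deletion WT and 17.7 to 18.4 in the deletion line. The promoters of Tuba3a and Tuba3b share a run of 33 bases, marked in capitals in the RefSeq windows (GRCm38.p6, chr6:125286171-125286243, minus strand, and chr6:145615814-145615886, plus strand). The shared run holds GGCGGGAA on the opposite strand, the letters that E2F6 binds at germ-line promoters, found on either strand in 2.19% of 32851 promoter windows.
Tuba3a: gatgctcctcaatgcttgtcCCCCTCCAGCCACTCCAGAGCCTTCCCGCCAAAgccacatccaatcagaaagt
Tuba3b: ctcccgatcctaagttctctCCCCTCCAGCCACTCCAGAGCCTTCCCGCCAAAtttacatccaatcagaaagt

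Other genes of germ cells and meiosis were higher as well. A list of 45 such genes was written after the values had been seen, so its counts are a description: 19 of 40 tested were higher, Tuba3a and Tuba3b among them, none lower, with a median log2 difference of 1.04. Over all genes tested, 3.62% were called higher. A gene at low levels passes the count minimum mainly through the experiment where it is high, so the 40 are not a fair sample of the list. Near copies such as Tuba3a and Tuba3b can share reads and are not independent. Smc1b, the meiotic cohesin subunit, had 5.93, 14.97 and 11.1 CPM and then 52.9, 146 and 57.2 (3.02 ± 0.45, adjusted p = 0.00305). Aurkc, the aurora kinase of germ cells, had 0.788, 5.17 and 0.725 and then 17.9, 17.7 and 16.3, so library b of the KO experiment stood above its group yet below all full-deletion libraries. Hormad1, a protein of meiotic chromosome axes, had 7.56, 12.6 and 11.8 and then 38.2, 63.5 and 46.2, and Stra8, a factor of meiotic entry, 4.78, 5.10 and 7.62 and then 20.8, 37.6 and 17.6. Ldhc, the lactate dehydrogenase of sperm, was near the limit of detection in the KO experiment with 2, 0 and 2 counts and had 38, 22 and 38 in the full-deletion experiment. Members that did not pass included Dazl, Ddx4, Sycp1 and Sycp3, with log2 differences of -0.23 to 0.54, so the list did not move as a whole. The E2F6 letters were in the promoter windows of 3 of 17 members called higher and 4 of 22 others, and CACGTG, an E-box bound by Mga and Max and found in 7.15% of all windows, in 2 and 13. Without b of the full-deletion experiment 17 members were called higher, and without a, b or c of the KO experiment 7, 1 and 0.

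Genes of the primitive endoderm, the extraembryonic layer that lines the yolk sac, were lower in the full-deletion WT. Of 17 genes in a list of primitive endoderm and trophoblast genes, 15 were tested, 8 were called lower and none higher, with a median log2 difference of -1.67. Over all genes tested, 3.33% were called lower. Members at low levels pass the count minimum mainly through the experiment where they are high. The 8 were the transcription factors Gata6, Gata4 and Sox17, the receptor Pdgfra, the endocytic adaptor Dab2, and the basement membrane genes Col4a1, Col4a2 and Lama1. Gata6 had 8.56, 2.65 and 5.55 CPM and then 0.434, 0.124 and 0.343 (log2 difference -4.17 ± 0.53, adjusted p = 0.00189). Col4a1, a collagen IV chain, had 105, 89.4 and 97.5 and then 21.4, 19.4 and 20.3 (-2.26 ± 0.17, adjusted p = 0.00048), with both WT groups tight. Other samples of the KO experiment varied widely. In the fit of all 15 samples Col4a1 had 13.98 and 83.1 CPM in the frameshift line and 33.3 to 181 in the 4 add-back samples. The full-deletion WT had 21.5 to 23.1 in that fit and the deletion line 21.9 to 23.4. Dab2 had 43.5, 13.97 and 26.3 and then 4.39, 2.12 and 4.07, Sox17 5.46, 2.32 and 3.66 and then 0.483, 0.436 and 0.784, and Pdgfra 21.1, 5.83 and 20.5 and then 2.70, 4.05 and 2.79. Among the KO-experiment libraries b was the lowest and a the highest for each of these 3 and for Gata6, while every full-deletion library lay below all 3. The defining markers Gata4, Gata6, Sox17 and Sox7 summed to 9.34, 3.58 and 5.82 RPKM in the KO experiment and to 1.21, 1.32 and 1.25 in the full-deletion experiment. In such bulk samples fewer cells of a type and less RNA per cell cannot be told apart. The trophoblast genes Hand1 and Gcm1 did not pass the test. Without b of the full-deletion experiment the same number of 8 was called, and without a, b or c of the KO experiment 4, 3 and 1.

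**Figure D2:**
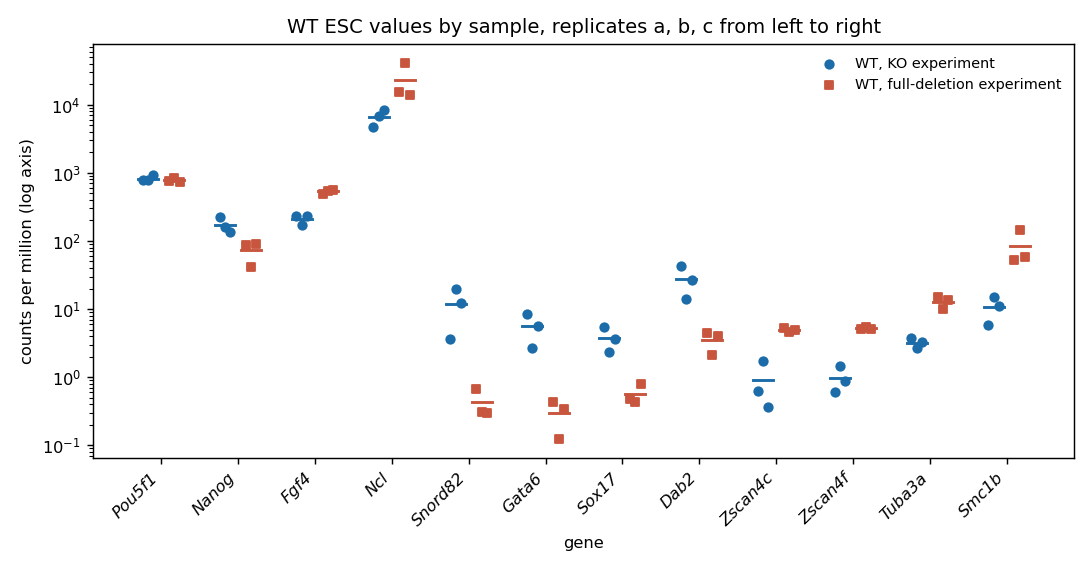
CPM on a log axis of 12 genes in each WT library, circles for the KO experiment and squares for the full-deletion experiment, with bars at the group mean of 3 libraries. Pou5f1 stays in place, Gata6, Sox17, Dab2 and Snord82 are lower and Zscan4c, Zscan4f, Tuba3a and Smc1b higher in the full-deletion experiment without overlap. Nanog and Ncl did not pass the threshold.

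Ncl, which encodes nucleolin, an abundant nucleolar protein of ribosome assembly, did not pass the test, although its values did not overlap. It had 4663, 6878 and 8381 CPM in the KO experiment and 15267, 41293 and 13836 in the full-deletion experiment, a log2 difference of 1.82 ± 0.46 (adjusted p = 0.0179). Library b was far above a and c, and Ncl had the most counts of any gene in each full-deletion library, with 3.06% of all counts in b. Of 50 nucleolar ribosome biogenesis genes, Nolc1 and Rrp12 were called higher and none lower, near the 3.62% of all genes called higher. Neither was called without a, b or c of the KO experiment. Nolc1, a chaperone of small nucleolar particles, had 601, 701 and 797 CPM and then 1540, 2902 and 1422 (1.48 ± 0.31, adjusted p = 0.00884). The median of the list was 0.31 with TMM and -0.04 with summed counts, so its sign follows the scaling.

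The small nucleolar RNAs tended to be lower in the full-deletion WT. These guide RNAs, cut from introns or short host transcripts, direct chemical changes in ribosomal RNA, those with boxes C and D 2'-O-methylation and those with boxes H and ACA pseudouridylation. Of 107 small nucleolar and Cajal body RNAs in the tables, 76 were tested, 20 were called lower and 1 higher, with a median log2 difference of -1.46 (a list written after the values were seen). Over all genes tested, 3.33% were called lower. An RNA at low levels passes the count minimum mainly through the experiment where it is high, so the 76 are not a fair sample of the list. Snord82 lies on chromosome 1 from 88252836 to 88252905 on the minus strand (mm9) inside Ncl (88241294 to 88256030), where it overlaps 0 annotated exons. It is cut from an intron of the Ncl transcript, and is shown with Snord15b (chr7:106628073-106628217, minus strand, mm9), which lies within the ribosomal protein gene Rps3 and overlaps annotated exon sequence there. Capitals mark TGATGA and CTGA, the letters of box C and box D. Among the 37 tested Snord genes with a position, 62.2% held TGATGA in the first 20 bases and 97.3% CTGA in the last 20, against 0% and 11.5% of 26 Snora genes. Over 32851 promoter windows, read at bases 1 to 20 and at 20 bases farther in, the shares were 0.365% and 8.78%.
Snord82: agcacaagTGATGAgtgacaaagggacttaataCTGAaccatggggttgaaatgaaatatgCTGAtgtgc
Snord15b: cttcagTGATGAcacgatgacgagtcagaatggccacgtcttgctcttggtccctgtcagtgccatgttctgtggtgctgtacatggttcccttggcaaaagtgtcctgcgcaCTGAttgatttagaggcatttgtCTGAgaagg

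Snord82 had 3.64, 19.5 and 12.3 CPM in the KO experiment and 0.676, 0.311 and 0.294 in the full-deletion experiment, a log2 difference of -4.73 ± 0.64 (adjusted p = 0.00245), while Ncl around it, not called, had a log2 difference of 1.82. Snord15b had 31.9, 47.0 and 57.8 and then 5.50, 1.74 and 4.604 (-3.51 ± 0.38, adjusted p = 0.00162), and Snord87 24.2, 62.2 and 118 and then 1.88, 1.62 and 2.01. Both types were among those called, with 9 of 37 Snord and 6 of 26 Snora genes with a position lower. The exception was Snora65, which had 14.5, 13.2 and 18.4 CPM and then 82.2, 197 and 111 (3.07 ± 0.32, adjusted p = 0.00136). Snora65 sits within Rpl12, a ribosomal protein gene that was also called higher, and overlaps annotated exon sequence there, so reads of the host can be counted for it. For 54 of the RNAs the host gene was tested too: 43 of the 54 had a lower log2 difference than their host, and the median was -1.52 for the RNAs and -0.37 for their 38 hosts. Only 31 of the 54 lie in an annotated intron. The others overlap annotated exon sequence of the host, so reads of host and RNA can be counted for both. Of the 15 called lower with a tested host, the host was called lower for 4 and did not pass for 11. Without b of the full-deletion experiment 16 were called lower, and without a, b or c of the KO experiment 12, 0 and 1.

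Other short structural RNAs were lower too. Of 19 structural and nuclear noncoding RNAs, 6 were called lower (Rpph1, Rmrp, Rprl1, Rprl2, Rprl3 and Xist), none higher, and the median was -0.92. Over all genes tested, 3.33% were called lower. Rmrp had 1815, 1298 and 2072 CPM and then 368, 62.6 and 276 (-2.88 ± 0.53, adjusted p = 0.00601). Without a, b or c of the KO experiment 1, 1 and 1 of the list were called lower, and 6 without b of the full-deletion experiment. Of the long nuclear RNAs on the list, Malat1 had a log2 difference of -0.16, Tug1 of -0.06 and Miat of 0.06, whereas Neat1, the RNA of paraspeckles, had -1.53 without overlap of the groups (adjusted p = 0.0117), and none of these passed. Xist, the RNA that coats the inactive X chromosome, is long but was barely detected, with 26, 35 and 21 counts and then 0, 1 and 1, or 3.39% of the KO-experiment level (95% exact interval for counting error only, 0.404% to 12.6%).

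Exon length moved with the share of genes called. Of 105 genes with under 200 exonic bases, 24.8% were lower and 1.90% higher, and of 112 genes of 200 to 499 bases 30.4% and 5.36%. From 2000 bases on, the share called lower was 2.41% or less and the share called higher 3.42% or less. The median log2 difference was -1.52 under 200 bases and 0.07 from 8000 bases on. Between the Hmga1-deficient lines of the experiments the median was -1.31 under 200 bases and -0.47 from 200 to 499. GC content of exons, known for 89.8% of genes tested, had a Spearman correlation across genes of 0.010 with the log2 difference. Preparation and experiment changed together, so their parts cannot be told apart.

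**Figure D3:**
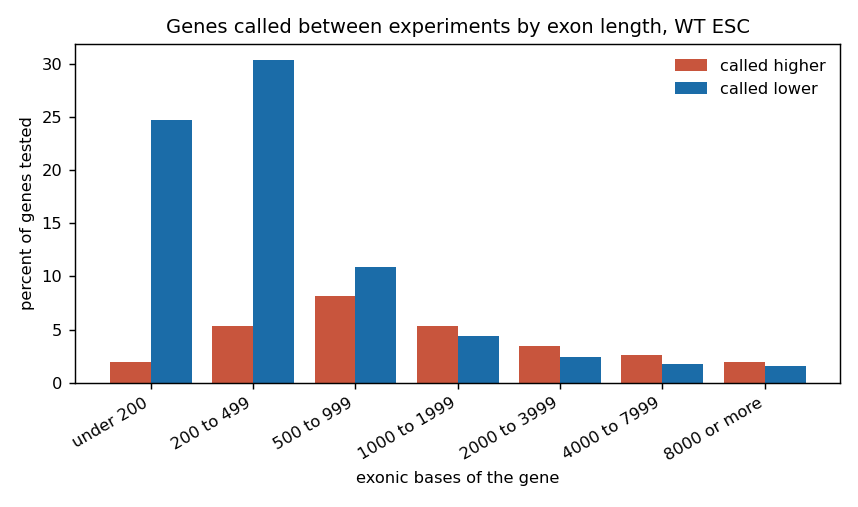
Percent of genes called higher (red) and lower (blue) in the full-deletion WT by exonic length of the gene, bars from 0. The blue bars are highest below 500 bases, at 24.8% and 30.4%, and fall to 1.56% from 8000 bases on.

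Replication-dependent histone genes, most of whose RNAs lack poly(A) tails, split by type. All 64 genes of the list, which was taken by gene name, were tested. Of these, 7 were called higher and 14 lower, beside 3.62% and 3.33% of all genes tested. The names include the pseudogene Hist3h2bb-ps and the H1 gene Hist1h1t, which is also on the germline list and was called higher. Of 13 H4 genes, 12 were lower with a median of -2.19, and of 11 H3 genes 2 were lower. Of 19 H2b genes 5 were higher with a median of 0.85, and of 6 H1 genes 2 were higher, while none of 15 H2a genes passed. Hist4h4 had 21.9, 36.6 and 36.9 CPM and then 2.27, 0.187 and 2.30 (-4.28 ± 0.54, adjusted p = 0.00189), whereas Hist1h2bb had 386, 361 and 422 and then 2253, 2013 and 3369 (2.71 ± 0.27, adjusted p = 0.00136). The split between H4 and H2b, drawn after the values were seen, kept its sign with summed counts (-2.45 and 0.53). Exonic length differed between the types as well. The 12 H4 genes called lower had 312 to 537 exonic bases, and of the H2b genes called higher Hist1h2bb and Hist2h2bb had 468 and 493, but Hist1h2be, Hist1h2bq and Hist1h2br had 2510, 2213 and 2213. Copies within a type share reads, so members are not independent. Without a, b or c of the KO experiment 3, 0 and 0 H4 genes, 1, 0 and 0 H2b genes, 1, 0 and 0 H1 genes and no H3 gene were called.

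Ribosomal protein genes and respiratory chain genes moved in both directions. Over all genes tested, 3.62% were called higher and 3.33% lower. Of 87 cytosolic ribosomal protein genes, 9 were higher and 19 lower, with a median of -0.24 (-0.55 with summed counts). Rpl37 had 179, 174 and 392 CPM and then 1647, 4154 and 1689 (3.33 ± 0.47, adjusted p = 0.00268), and Rps27 went from 52.1, 36.1 and 67.0 to 280, 214 and 302. In the opposite direction Rps16 had 137, 200 and 207 CPM and then 38.9, 19.5 and 35.4 (-2.54 ± 0.29, adjusted p = 0.00164), and Rpl38 went from 44.2, 35.8 and 43.7 to 10.04, 3.80 and 7.49. So subunits that are needed in equal number in the ribosome differed in opposite directions. Their groups did not overlap, which holds for every called gene. Reads with several matches were placed at 1 of them at random, and their part here was not tested. Of 93 respiratory chain genes tested, 6 were higher and 15 lower, also with a median of -0.24 (-0.55 with summed counts). Cox7c, a subunit of cytochrome c oxidase, had 55.2, 59.5 and 40.8 CPM and then 13.8, 13.5 and 12.2 (-1.97 ± 0.20, adjusted p = 0.00136), and Ndufb4, of complex I, 9.57, 10.2 and 17.2 and then 36.9, 68.2 and 42.6 (2.00 ± 0.30, adjusted p = 0.00308). Without a of the KO experiment 1 ribosomal protein gene was called higher and 10 lower, and 9 respiratory chain genes lower, and without b or c at most 1 gene of each list was called.

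Genes of the pluripotency network went in both directions. Of 14 core pluripotency genes 2 were higher and 1 lower, and of 16 naive pluripotency genes 1 was higher and 1 lower, beside 6.95% of all genes called. The medians of 0.32 and 0.42 became -0.05 and 0.06 with summed counts. Of the 14 core genes, 5 were higher and 3 lower without overlap of the groups, beside 48.2% of all genes tested without overlap. None of the calls on either list was made without a, b or c of the KO experiment. Pou5f1 had 778, 779 and 915 CPM and then 758, 836 and 721, a log2 difference of -0.09 ± 0.20 (adjusted p = 0.752). Nanog had 224, 160 and 137 and then 88.3, 42.0 and 89.5, which did not overlap but did not pass (-1.25 ± 0.30, adjusted p = 0.0153). Fgf4, the growth factor that ESC secrete and that primes them for differentiation, was higher, with 230, 174 and 233 CPM and then 495, 547 and 555 (1.32 ± 0.20, adjusted p = 0.00342). Nr0b1, the nuclear receptor Dax1, and Trim28, the corepressor Kap1, were higher with 1.30 ± 0.26 and 1.23 ± 0.23 on the log2 scale. Dppa5a, an RNA-binding protein of ESC, was lower, with 287, 452 and 518 CPM and then 127, 47.1 and 106 (-2.16 ± 0.36, adjusted p = 0.00456), and Tfcp2l1, a factor of the naive state, was lower by -1.28 ± 0.27. Of 14 formative and primed genes tested, Fgf15 and Zic5 were higher and none lower, and without a, b or c of the KO experiment 1, 0 and 0 were called. Fgf15 went from 10.7, 12.2 and 11.4 to 46.7, 84.8 and 52.5 CPM (2.43 ± 0.25, adjusted p = 0.00136). None of the 7 neural and mesendoderm genes tested and none of the 6 feeder fibroblast genes passed.

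**Figure D4:**
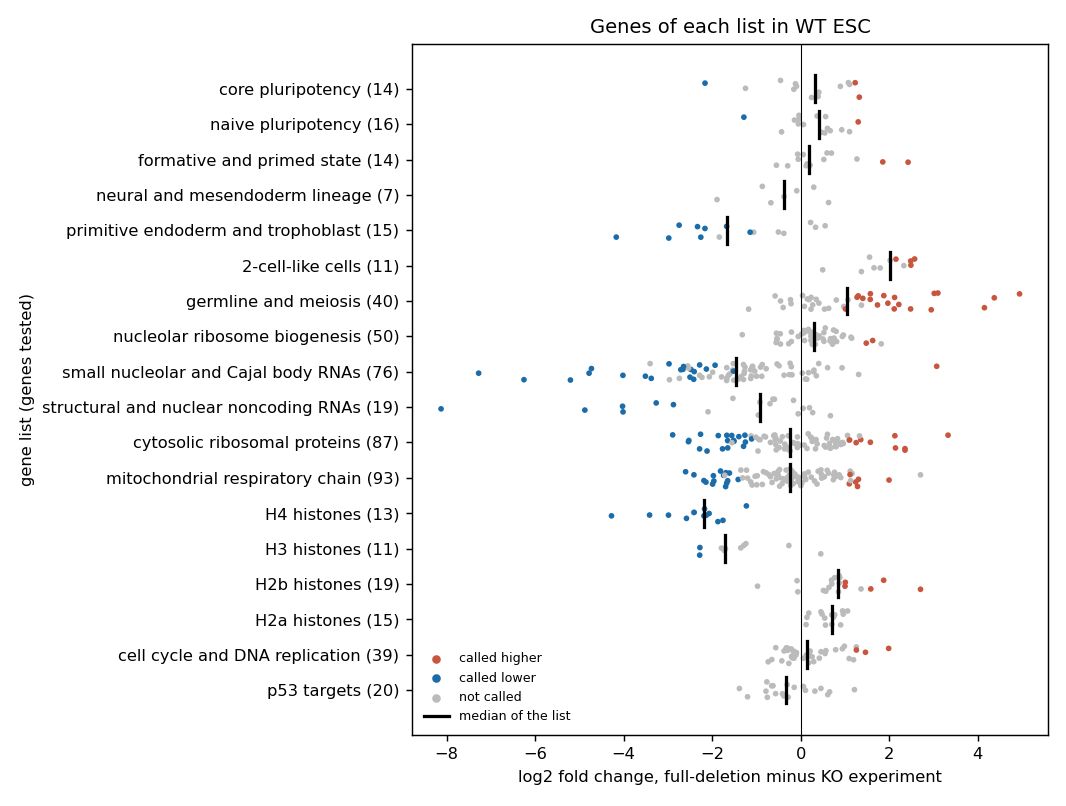
Log2 fold change of WT, full-deletion minus KO experiment, for each tested gene of 18 lists; points are genes, red called higher, blue called lower and grey not called, and black bars are list medians. Small nucleolar RNAs, H4 histones and primitive endoderm genes lie mostly left of 0, 2-cell-like and germline genes mostly right of it, and ribosomal protein genes on both sides.

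Pathways of growth and stress had few calls. Immediate early and ERK feedback genes had 2 of 21 lower, Spry2 and Dusp6, both inhibitors of FGF signalling. Amino acid stress genes had 2 of 30 higher, Ddit3 and Nupr1, heat shock genes 2 of 20 higher, Hspe1 and Bag3, and glycolysis and hypoxia genes 2 of 27 higher, Eno1 and Vegfa, and 2 lower, Pdk1 and P4ha2. Cell cycle and replication genes had 3 of 39 higher (Aurka, Mcm2 and Rrm1), sterol and fatty acid genes 1 of 32 (Fads2), DNA methylation and TET genes 1 of 14 (Mbd3) and imprinted genes 2 of 30 (Snrpn and Ascl2), with none lower. Interferon response genes had 1 of 17 lower (Bst2), and no p53 target passed of 20. Most of these shares lie near the 6.95% of all genes, and none of these genes was called without a, b or c of the KO experiment. None of 7 Hmga genes and partners passed, and Hmga2 had 20.4, 10.9 and 13.8 CPM and then 18.0, 13.4 and 16.4. Of 4 Y-linked genes and Xist tested, only Xist was called.

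Within each experiment the WT libraries also differed among themselves. The median gene with at least 10 CPM spanned 0.43 on the log2 scale over the 3 libraries of the KO experiment and 0.41 over those of the full-deletion experiment. In the KO experiment the widest spans were in Gm20594, Lars2, Rnu1b2, Snord15a and Rpgrip1. Lars2, the mitochondrial leucine tRNA ligase, had 47.9, 41.6 and 1249 CPM, so c alone was high, and 37.9, 23.6 and 33.8 in the full-deletion experiment. Gm20594 had 162, 145 and 2.54 CPM, so c alone was low. In the full-deletion experiment the widest spans were in Rprl3, Hist2h3b, Rmrp, Hist1h3g and Snrnp27. Hist1h3g had 55.4, 9.65 and 55.7 CPM and Snrnp27, a protein of the U4/U6.U5 particle, 63.0, 330 and 75.9, so library b was the odd one in both.

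The same difference between experiments was asked of the cells without Hmga1, the deletion line against the frameshift line. These lines also differ in clone and in the kind of mutation, which cannot be told apart from experiment in this contrast. These samples are not those of the WT comparison but shared their preparation days, flow cells or lane. In a fit of all 15 samples 196 of 13671 genes were called (1.43%), 101 higher and 95 lower in the full-deletion experiment, and 9 to 42 were called when any 1 of these 5 samples was left out. Across genes the log2 differences of the 2 contrasts had a Pearson correlation of 0.651 and a Spearman correlation of 0.636, given as a description. Of 929 genes called in WT that were tested here, 888 had the same sign (95.6%, against 74.0% of all genes) and 136 were called too. The share over all genes includes the many that moved little. For genes called higher in WT the median log2 difference was 1.46 in WT and 0.84 in the Hmga1-deficient lines, and for those called lower -1.59 and -0.98. These genes were selected on their WT values, so smaller medians in the other contrast would follow from the selection alone. Snord82 differed by -4.16 ± 1.03 and Fgf15 by 2.40 ± 0.26, close to the WT values. Small nucleolar RNAs had a median of -1.46 here as well. The primitive endoderm and trophoblast list had a median of -0.27 and no calls: Dab2 differed by -0.08 ± 0.54 and Gata6 by -1.27 ± 0.71. Yet the difference of the contrasts did not pass for either (adjusted p = 0.194 and 0.422), so WT is not shown to differ here.

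Where the difference of the contrasts was itself tested, 17 genes were called (0.124%), and 10 of them are on the 2-cell-like list. Clone, kind of mutation and experiment change together between the Hmga1-deficient lines, so a call here can reflect any of them. Zscan4c was higher in WT by 2.58 and lower by -2.68 ± 0.45 in the Hmga1-deficient lines, a difference of 5.26 ± 0.65 (adjusted p = 0.00149). The other 5 Zscan4 genes tested had the same opposite signs. Ldhc, Xlr3a, Usp26 and Hydin, of the germline list, were also among the 17, and Tuba3a was not (2.45, adjusted p = 0.049). Ldhc, to give an example, had 0.06, 0 and 0.08 CPM in WT of the KO experiment, 0.95 and 1.28 in the frameshift line, 1.97, 1.52 and 2.01 in WT of the full-deletion experiment and 0.59, 0.80 and 0.60 in the deletion line. As for Zscan4c, WT of the KO experiment was the lowest group of the 4. The number called ran from 4 to 21 when any 1 library was left out.

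**Figure D5:**
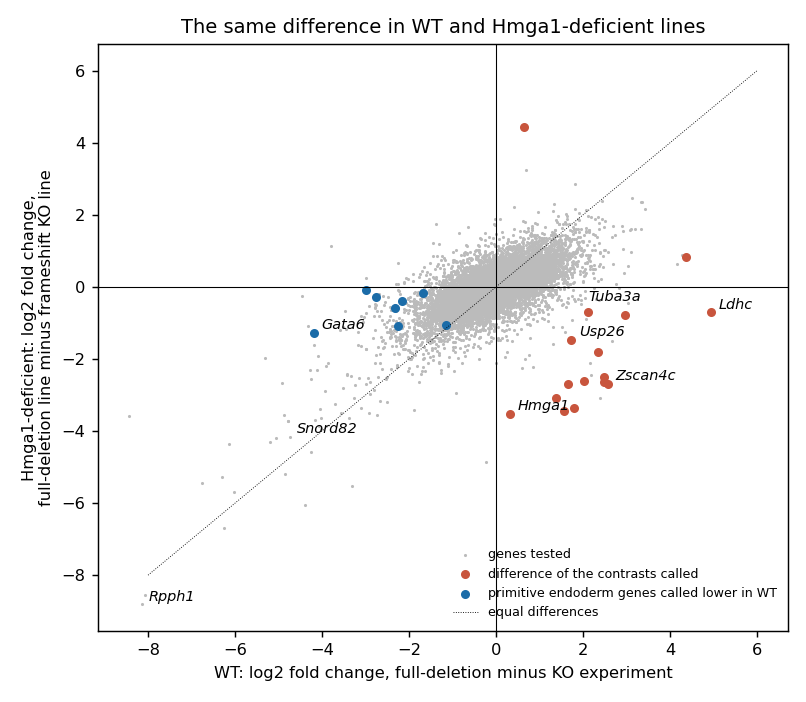
Log2 fold change between experiments in WT (x axis) against that in the Hmga1-deficient lines (y axis, deletion line minus frameshift line). These lines differ in clone and kind of mutation as well as in experiment. Genes tested both in the 6 WT samples and in all 15 samples are shown. The dotted line marks equal differences, and the differences of genes called in WT are mostly smaller on the y axis than on the x axis. Those genes were selected on their WT values, so smaller y values would follow from the selection alone. Red marks those of the 17 genes called in the test of the difference that were also tested in the 6 WT samples, which leaves out Tcstv3. Zscan4c and its relatives lie at lower right, and 8 primitive endoderm genes (blue) lie left of 0, with y values from -1.27 (Gata6) to -0.08 (Dab2).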

How the data were processed

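RNA-seq was made from rRNA-depleted total RNA with a strand-specific kit and read as 50-base single ends. The deposited values are raw counts: the authors trimmed 3 bases, mapped the rest to mm9 (bowtie, run from QuasR), placed a read with several matches at 1 of them by chance, and tallied same-strand reads over UCSC known genes. The labels give no culture origin for each sample, so p-values measure the spread between samples. Genes averaging 10 counts or more over the 6 WT samples were tested with edgeR 4.0.16 in R 4.3.3 (TMM, quasi-likelihood test, Benjamini-Hochberg adjustment). Calls needed an adjusted p below 0.01 together with a log2 difference of 1 or more. The Hmga1-deficient contrast and the difference of contrasts came from a fit of 15 samples in 6 groups.

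Named genes were Zscan4c, Ncl and Tuba3a, the 10 largest differences in each direction with at least 5 CPM in the higher experiment, the 15 highest RPKM, the 5 most even of the 1000 most abundant genes, the 5 widest ranges in each experiment at 10 CPM or more, and list members. The members, the 25 gene lists and a further 8 written later were chosen with earlier results of these data known. Positions come from the NCBIM37 annotation (19319 of 21662 symbols matched once, 89.2%). On data simulated from these 6 samples, the test called 85 of 100 genes given a log2 change of 1.5, all 100 given a change of 2, and 4 of the unchanged ones. The changed genes averaged at least 100 counts, and the libraries were drawn independently. None was made to stand apart as b of the full-deletion experiment did. These rates therefore need not hold for the real libraries or for genes with low counts. Alternatives were other scalings, count minimums and thresholds, DESeq2 1.42.0, limma-trend (limma 3.58.1), a replicate block, a fit of all samples, and leaving out each sample; 2 were added after seeing the data.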

Additional observations from a re-analysis of the deposited data

Results flagged for a closer look

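For 17 genes the difference between experiments was not the same in WT as in the Hmga1-deficient lines, by a test of the difference itself (edgeR's quasi-likelihood test of an interaction term, WT minus Hmga1-deficient, log2 scale). The Hmga1-deficient lines also differ in clone and in the kind of mutation, so traits of a line cannot be told apart from experiment here. The 6 Zscan4 genes differed by 5.26 (Zscan4c), 5.17 (Zscan4e), 5.12 (Zscan4a), 4.99 (Zscan4b), 4.98 (Zscan4f) and 4.63 (Zscan4d), with adjusted p between 0.00138 and 0.0091. Other genes of 2-cell-like cells were Tcstv3 at 5.03, Gm4340 at 4.46, Gm5662 at 4.36 and Usp17lc at 4.15. Genes known from germ cells were Ldhc at 5.66, Xlr3a at 3.54, Usp26 at 3.20 and Hydin at 2.81. Calml4, a calmodulin-like protein, differed by 3.74. Hmga1 differed by 3.83, from 0.32 in WT and -3.52 between the lines that lack its product. Eif2s3y, a Y-linked gene of translation initiation, was the only one below 0, at -3.81, from 0.64 in WT and 4.45 in the Hmga1-deficient lines.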

How the results depend on the processing

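The 933 calls in WT (486 higher, 447 lower) became 2001 with no filter on low counts (997 and 1004), 1978 at an adjusted p under 0.05 (953 and 1025), 1526 in the fit of all 15 samples (774 and 752) and 1762 with the Wald test of DESeq2 (924 and 838). With summed counts for scaling only 158 were called higher. Leaving out 1 sample gave 15 to 991 calls (4 to 574 higher, 8 to 417 lower), and leaving out a and c of the KO experiment together gave 0 (0 higher and 0 lower; 3021 genes at an unadjusted p under 0.05), with a lone library assumed to vary like the others. The cause was not tested. DESeq2 size factors (947), a mean count of at least 50 (797), no minimum fold (1042), limma-trend (902) and genes of at least 1000 exonic bases (788 of 12540) stayed within 1.5 times. The letters do not pair samples: deviations from the group means correlated at 0.296 for a, 0.072 for b and -0.224 for c, and a replicate block gave 1083 calls in WT, 305 in the Hmga1-deficient lines and 18 for the difference of contrasts. The 196 calls in the Hmga1-deficient lines became 619 with the add-backs as further samples and 9 to 42 with 1 sample left out, and the 17 for the difference of contrasts 11 with summed counts and 4 to 21. Of 164 called genes named here or on a list, 42 no longer passed with summed counts and 109, 157 and 156 without a, b or c of the KO experiment.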
